A study of Mus musculus with 6 samples.

Results

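A set of 5 mouse miRNAs known to bypass part of the usual processing route was followed in hepatoma tumours: mmu-miR-320-3p and mmu-miR-484, whose short hairpins are described as capped at the 5′ end, and mmu-miR-877-5p, mmu-miR-1224-5p and mmu-miR-702-3p, which are described as mirtrons. The species prefix is left out from here on. They were taken by name from the arrays, where each stands as 1 of 1881 mouse miRNAs, and all 5 members were bright enough to be among the 388 that were tested. Tumours had grown from 0.1 ml of Hepa1-6 cells, a mouse hepatoma line, placed in the right flank of C57BL/6 mice. The labels name no engineered allele in either group. One group of 3 mice received GLE, a name given without explanation, at 0.023 g per day as calculated for a mouse of 10 g. The model group of 3 mice had saline, 0.2 ml once daily over 28 days per the protocol, although its treatment label reads none. The age is labelled 28d for all 6 mice. A whole tumour holds host cells as well as the inoculated line, so that fewer cells of a type and less RNA per cell cannot be told apart in any value here.

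Most miRNAs are cut from a long transcript by Drosha and its partner DGCR8, exported, and trimmed by Dicer. A capped precursor skips the first cut because transcription itself sets its 5′ end, and the hairpin carries the cap to the cytoplasm. A mirtron skips it as well: the spliceosome cuts out a short intron that folds into a hairpin, so the ends of the intron are those of the precursor. Dicer still acts on both kinds.

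RefSeq sequences (build GRCm38.p6) matched 4 of the 5 members by miRNA name, and miR-320-3p was not matched. The 4 mature sequences are shown because they show how little the members share. Capitals mark the seed, bases 2 to 8 from the 5′ end, which pairs with targets.
miR-484: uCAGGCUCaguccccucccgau
miR-877-5p: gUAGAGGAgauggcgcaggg
miR-1224-5p: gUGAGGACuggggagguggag
miR-702-3p: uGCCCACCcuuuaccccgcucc
No seed was shared between them, and for each of the 4 the seed occurred in 1 of the 1679 mature entries, its own. All 4 were GC-rich, at 63.6% for miR-484, 65.0% for miR-877-5p, 66.7% for miR-1224-5p and 68.2% for miR-702-3p, against a median of 54.5% over the 336 tested miRNAs with a sequence. In G content they split: miR-877-5p and miR-1224-5p, the 5′ arms of their hairpins, held 55.0% and 61.9% G, while the 3′ arm miR-702-3p held 9.09% and miR-484 held 18.2% (median of the tested miRNAs 30.4%).

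The hairpins of the mirtrons are shown because an intron starts with GU and ends with AG, which are in capitals where they close the hairpin, or, for Mir702, at the first bases of the 5′ arm.
Mir877: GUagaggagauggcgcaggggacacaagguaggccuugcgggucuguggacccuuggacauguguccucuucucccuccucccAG
Mir1224: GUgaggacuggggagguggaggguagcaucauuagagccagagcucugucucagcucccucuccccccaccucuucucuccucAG
Mir702: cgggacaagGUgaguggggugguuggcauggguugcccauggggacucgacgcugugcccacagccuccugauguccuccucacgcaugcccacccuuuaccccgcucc
The hairpins of Mir877 (chr17:35960730-35960814, minus strand) and Mir1224 (chr16:20604452-20604536, plus strand) began with GU and ended with AG, as did 30 of all 1005 hairpins in the table (2.99%). The Mir702 hairpin (chr5:136991433-136991541, plus strand) did not: its 5′ arm began with GU after 9 leading bases, and its 3′ arm, the member miR-702-3p, ended in CC. In RefSeq the mirtron hairpins lie within protein-coding genes, Mir877 in Abcf1, which acts in translation initiation, Mir1224 in Vwa5b2, and Mir702 in Plod3, which modifies collagen lysines. The capped pair lay within no protein-coding gene. The nearest such gene was Polr3d, a subunit of RNA polymerase III, for Mir320 and Marf1 for Mir484.

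The arrays read each miRNA through 2 to 4 short DNA probes that pair with its 3′ end. The probes of miR-320-3p, miR-484 and miR-1224-5p are shown since length differs most between them.
miR-320-3p, longer probe: tcgccctctcaac
miR-484, longer probe: atcgggaggggactga
miR-1224-5p, longer probe: ctccacctccc
The longer probe of miR-1224-5p had 11 bases and the shorter 10, whereas the median probe on the array had 16. Short probes also served miR-877-5p, whose 4 probes had 10, 11, 12 and 13 bases. Probes under 12 bases were 3.28% of all 4415. No other mature RefSeq entry contained the complement of any probe of the 5 members. That search covered 1679 mature entries, which included 336 of the 388 tested miRNAs and not miR-320-3p itself. Array miRNAs without an entry, other kinds of RNA and partial matches were not examined, so it does not show that each probe had 1 target. In the files the probes of miR-320-3p map to chromosome 14, 70843374 to 70843385, on mm9, and those of miR-484 and miR-702-3p are listed as unmapped.

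Between 378 and 458 miRNAs were detected per array, and array brightness, taken as the 75th percentile over probes seen on all 6 arrays, went from 203 in GLE replicate 1 to 364 intensity units in GLE replicate 2. The lowest signal of a detected probe was 11.8 to 13.2 units. Of the markers of hepatocytes, miR-122-5p was detected on 2 of 6 arrays and the other 3 of the 4 listed were tested. Of the epithelial markers, miR-200c-3p and miR-141-3p were detected on 0 arrays and miR-205-5p on 1. Other members of the miR-200 family, outside that list and looked up after the data were seen, were tested: miR-200b-3p had a mean scaled value (log2) of 1.27, miR-429-3p of 0.86 and miR-200a-3p of 0.062. By contrast with the listed epithelial markers, all 6 immune markers and all 5 of fibroblasts and smooth muscle were tested. All 6 arrays were on 1 slide with 1 scan time, and the first number of the array position was 1 for every GLE and 2 for every model array, so this position and the group cannot be told apart.

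**Figure D1:**
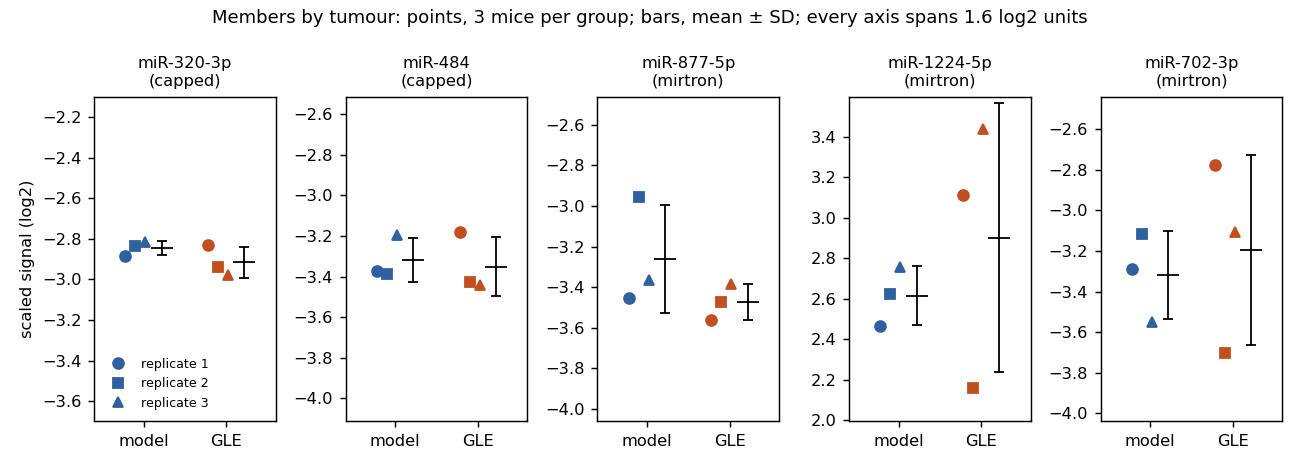
Scaled signal (log2) of the 5 members in each tumour, 3 model (blue) and 3 GLE (orange) mice, with marker shapes for the replicates and bars for mean ± SD. The 2 groups overlap for every member, the points of miR-320-3p lie within 0.16 of each other, and those of miR-1224-5p span 1.28.

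The capped members gave small differences between the groups, and none passed the test. Values below are log2 of the signal relative to that percentile of the same array. Differences are GLE minus model from limma's fit over all 388 miRNAs, ± SE, with Benjamini-Hochberg adjustment over all of them and a threshold of 0.05. Over all tested miRNAs, 0% passed that threshold and 6.7% had groups that did not overlap. An unadjusted p under 0.05 was found for 1.55% of them. With values scaled this way, 0 of 5 members passed, 0 of 5 had such an unadjusted p and 0 of 5 had groups that did not overlap.

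miR-320-3p, which lies upstream of a polymerase gene and was among the first animal miRNAs traced to a capped precursor, stood at −2.83, −2.94 and −2.98 in the GLE tumours, replicates 1 to 3. In model replicates 1, 2 and 3 it stood at −2.88, −2.84 and −2.82. GLE replicates 2 and 3 were the 2 lowest tumours and GLE replicate 1 lay among the model tumours, so the groups overlapped under this scaling. The difference was −0.070 ± 0.15, or 0.952-fold with a 95% interval of 0.745 to 1.22 (limma adjusted p = 0.950), and its size depended on the scaling. It was 0.0048 with no scaling, −0.13 with the median of detected probes, −0.14 with quantile normalisation, −0.16 with the percentile over all probes and −0.20 in the authors' deposited table, and −0.11 without GLE replicate 1. 

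miR-484, known to act on the mitochondrial fission factor Fis1, was measured at −3.18, −3.43 and −3.44 in the GLE tumours and at −3.37, −3.39 and −3.19 in the model tumours, both in the order of replicates 1 to 3, as are all such values from here on. One tumour of each group, GLE replicate 1 and model replicate 3, was higher than the other 4, which lay between −3.44 and −3.37. The difference of −0.032 ± 0.17 (0.978-fold, 95% interval 0.745 to 1.28, limma adjusted p = 0.973) had no settled sign: it was 0.043 without scaling, and its 2 probes gave 0.041 and −0.11. These 2 tumours had the dimmest arrays, with 75th percentiles of 203 and 211 units, and miR-484 stood out in them only after scaling. Unscaled, it read 23.0 and 24.5 units there, and 23.0 in GLE replicate 3 and 23.3 in model replicate 2. In GLE replicate 2 and model replicate 1 it read 35.8 and 31.9. Scaled red cell markers were high in the same 2 dim-array tumours. Summed over the 2 tested erythrocyte miRNAs, the scaled signal was 10.67 in GLE replicate 1 and 12.2 in model replicate 3 against 2.90 to 5.57 in the other 4, and the part of these cells in the miR-484 values was not tested.

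The mirtrons were less uniform. Over the 6 tumours miR-877-5p did not run with miR-1224-5p (r = −0.091) or miR-702-3p (r = 0.028), and the relation of those 2 is given below. miR-877-5p, from the Abcf1 intron, stood at −3.56, −3.48 and −3.38 in the GLE tumours, and at −3.46, −2.96 and −3.37 in the model tumours. Model replicate 2 was the high one and GLE replicate 1 the low one, while the groups overlapped. The difference was −0.21 ± 0.19 (0.862-fold, 95% interval 0.631 to 1.18, limma adjusted p = 0.935). It fell to −0.063 without model replicate 2 and to −0.054 with normexp background correction.

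miR-1224-5p, from the Vwa5b2 intron, was the bright member, with unscaled signals of 1604 to 2940 units against 17.3 to 47.8 for the other 4 members. Probes of different miRNAs are not calibrated against each other, so this is no statement on copy number. Its scaled values were 3.11, 2.16 and 3.44 in the GLE tumours, and 2.46, 2.63 and 2.76 in the model tumours. GLE replicates 1 and 3 lay above all model tumours and GLE replicate 2 below all of them. The difference of 0.29 ± 0.33 (1.22-fold, 95% interval 0.712 to 2.09, limma adjusted p = 0.935) depended on 2 tumours: it was 0.66 without GLE replicate 2 (limma adjusted p = 0.0823) and 0.020 without GLE replicate 3. Its 2 probes gave 0.29 and 0.28. The change without GLE replicate 2 was not particular to miR-1224-5p. Of the 388 tested miRNAs, 107 then had an unadjusted limma p under 0.05, against 6 with all tumours.

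miR-702-3p, from the Plod3 locus, stood at −2.78, −3.70 and −3.11 in the GLE tumours, and at −3.29, −3.12 and −3.55 in the model tumours. As for miR-1224-5p, GLE replicate 2 was the lowest of the 6 tumours and the other 2 GLE tumours were the highest. The difference was 0.12 ± 0.27 (1.09-fold, 95% interval 0.703 to 1.69, limma adjusted p = 0.950). Without GLE replicate 1 its sign turned, to −0.085, and without GLE replicate 2 it was 0.38.

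Markers of blood and stromal cells also differed between the GLE tumours that set these values. The summed scaled signal of the 6 immune markers was 10.66, 5.46 and 15.6 in the GLE tumours and 4.51 to 7.12 in the model tumours. For the 5 markers of fibroblasts and smooth muscle it was 2.46, 1.45 and 4.25 in the GLE tumours and 1.26 to 1.92 in the model tumours. GLE replicate 2 was thus the lowest GLE tumour in both lists, as it was for miR-1224-5p and miR-702-3p. All of these values were divided by the same 75th percentile, which was highest for GLE replicate 2, so part of this likeness can come from the scaling. Unscaled, miR-702-3p read 28.0 units in both GLE replicate 2 and GLE replicate 3, and the lists were not summed without scaling. GLE replicate 2 differed in other lists too. For the 3 tested hepatocyte markers it was the highest, at 2.61 against 0.551 to 1.22 in the other 5 tumours. It was also the highest of the 6 tumours for miR-200a-3p, miR-200b-3p and miR-429-3p. For the 3 tested muscle markers GLE replicate 1 was the highest, at 2.61 against 0.501 to 1.196 in the other 5 tumours. That tumour was also the highest for miR-702-3p. The 1 tested endothelial marker, miR-126a-3p, differed by 0.49 ± 0.19 (limma adjusted p = 0.935). Its groups did not overlap, with the GLE tumours higher and GLE replicate 2 the lowest of them. The part of any of these markers in the mirtron values was not tested.

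**Figure D2:**
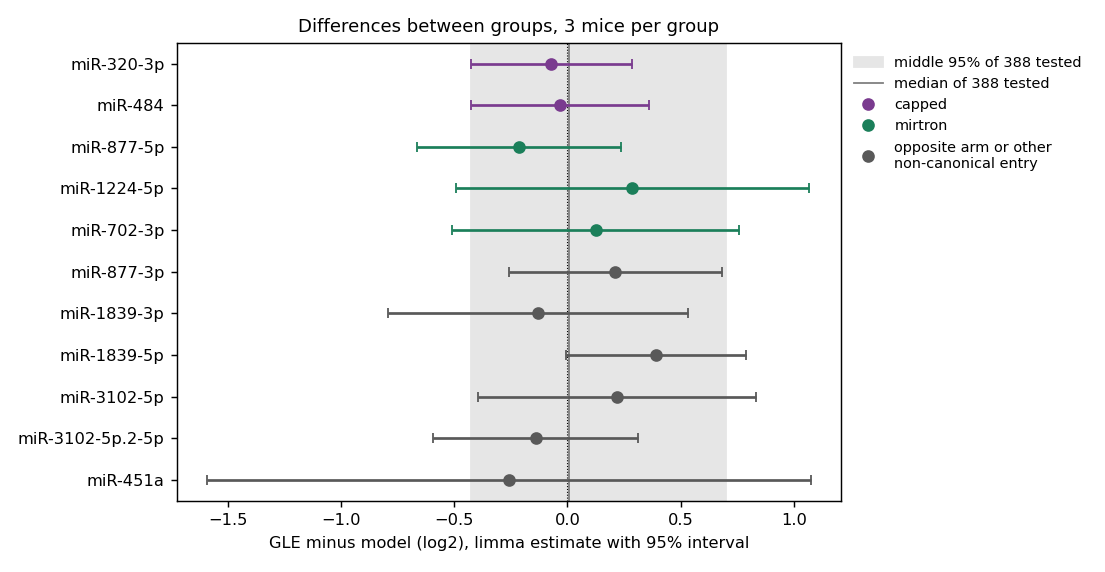
Differences between GLE and model tumours (log2, limma estimate with 95% interval, 3 mice per group) for the 5 members, miR-877-3p and the tested entries of other unusual origin. The grey band is the middle 95% of all 388 tested miRNAs, and all 11 intervals include 0.

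Set side by side as classes, the capped pair had a mean difference of −0.051 and the mirtrons one of 0.066. The mean of the capped pair per array was −3.01, −3.18 and −3.21 in the GLE tumours and −3.13, −3.11 and −3.01 in the model tumours. That of the mirtrons was −1.08, −1.67 and −1.02 in the GLE tumours and −1.43, −1.15 and −1.39 in the model tumours. Capped minus mirtron was −1.88 ± 0.34 in GLE and −1.76 ± 0.18 in model tumours (SD, n = 3), a shift of −0.12 with overlapping groups. No p is given, as these are means over chosen members. The shift was −0.0063 without miR-1224-5p, a choice made after its values were seen, and 0.040 without GLE replicate 3. In sign, 1 mirtron was below 0 and 2 above, and both capped members were below 0. Without scaling both capped members were above 0, and miR-484 was also above 0 without GLE replicate 2 (0.0066), GLE replicate 3 (0.013) or model replicate 3 (0.031). Over all 388 miRNAs 51% were above 0 and 49% below, with a median of 0.0078 and a middle 95% from −0.43 to 0.70, a range that held all 5 members. The 4 tested miRNAs of a list of ubiquitous canonical miRNAs, which take the Drosha route, had a median of 0.040, with 3 above 0 and 0 past the threshold.

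The opposite arm of a hairpin is usually the less stable product. miR-320-5p, miR-1224-3p and miR-702-5p were detected on 0 of 6 arrays, so that for these hairpins 1 arm was seen. The arms of miR-877 were both detected, miR-877-3p on 6 arrays by at least 1 probe, and on model replicate 3 by 1 of its 4. Its scaled value was −3.35, −3.84 and −3.72 in the GLE tumours and −3.73, −3.75 and −4.05 in the model tumours. The difference of 0.21 ± 0.20 (limma adjusted p = 0.935) was opposite in sign to that of miR-877-5p. Taken as 5′ minus 3′ arm, miR-877 stood at 0.16 ± 0.33 in GLE and 0.59 ± 0.27 in model tumours (SD, n = 3). The shift was −0.43, larger than either SD, with groups that overlapped (two-sided exact permutation p = 0.3). With 20 relabelings no p below 0.1 can be reached, so the design cannot pass a threshold of 0.05. The value of model replicate 3 includes 3 probes of miR-877-3p that were not detected there. These 3 were kept because all GLE arrays detected them. In turn, 1 probe of miR-877-5p was not detected on GLE replicate 1 and was kept through the model arrays. Keeping probes by detection in 1 group can itself shift the arms in this direction, so nothing is concluded from the shift or its p. With probes detected on all 6 arrays the difference of miR-877-5p was −0.20.

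Other miRNAs known to leave the Drosha or Dicer route gave no call either. Of 10 listed entries, 5 were tested: 2 were above 0, 3 below and 0 past the threshold, with a median of −0.13 against 0.0078 over all tested miRNAs. miR-451a, which Ago2 cuts in place of Dicer and which red cells carry, differed by −0.26 ± 0.56. miR-1839-5p and miR-1839-3p, from a hairpin that resembles a small nucleolar RNA, differed by 0.39 ± 0.17 and −0.13 ± 0.28. For miR-1839-5p the 3 GLE tumours lay above the 3 model tumours (limma adjusted p = 0.935). Such separation in that direction was found in 4.64% of all tested miRNAs, and separation in the other direction in 2.06%. miR-3102-5p and miR-3102-5p.2-5p, from a mirtron with hairpins in tandem, differed by 0.22 ± 0.26 and −0.14 ± 0.19. miR-1983, which resembles a tRNA, miR-664-5p and miR-3102-3p were detected on 0 arrays.

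The letters GU and AG at the hairpin ends gave a wider group, assembled after the data were seen. The 30 such hairpins had 56 arms, of which 17 besides the members were tested. Of these, 8 were above 0 and 9 below, with a median of −0.035, a range from −0.55 to 0.47, and 0 past the threshold or with separated groups. The letters alone do not make a mirtron: the canonical miR-20a-5p (−0.25 ± 0.29) and miR-194-5p (0.47 ± 0.85) were among them.

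**Figure D3:**
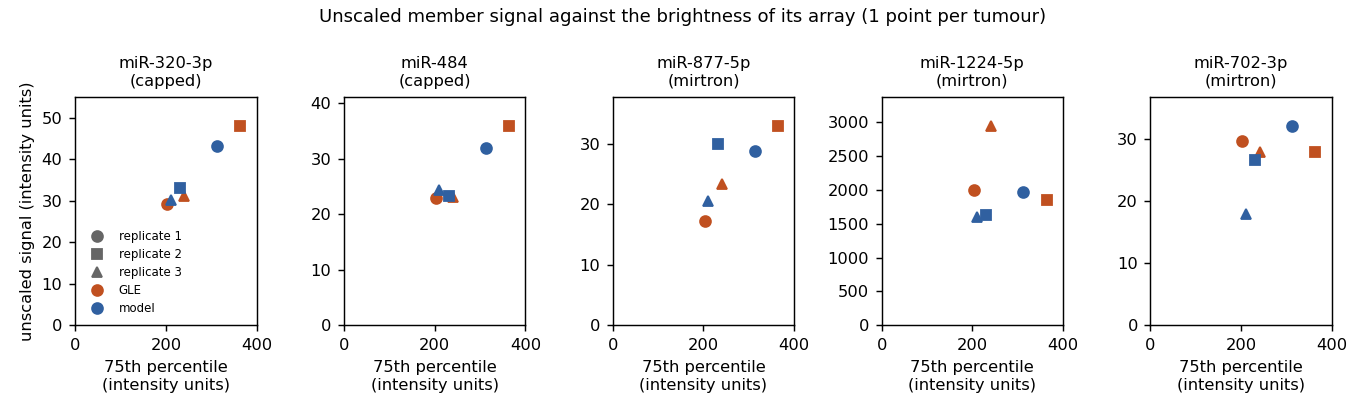
Unscaled signal of each member (intensity units) against the 75th percentile of its array (intensity units), 1 point per tumour, GLE in orange and model in blue, both axes from 0. miR-320-3p and miR-484 are highest on the 2 brightest arrays, GLE replicate 2 and model replicate 1, whereas miR-1224-5p is highest on GLE replicate 3.

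The members also varied to different extents from tumour to tumour, which is described here for 2 capped members and 3 mirtrons with no test between the classes. Unscaled signals mostly rise with the brightness of their array: over all 388 tested miRNAs the median Pearson r with the 75th percentile was 0.81, and r was above 0 for 88.7%. Before scaling, miR-320-3p read 29.2, 47.8 and 31.1 units in the GLE tumours and 43.1, 33.0 and 30.0 in the model tumours, in step with array brightness. Its Pearson r with the 75th percentile was 0.99 (exact permutation p = 0.00417, adjusted p = 0.0208 over 5 relations), Spearman's rho was 0.94 (exact permutation p = 0.0167, adjusted p = 0.0833), and r was 0.74 without the 2 brightest arrays. An r at least as high was found for 2.58% of the tested miRNAs. The permutation p-values here are set against no relation, whereas most miRNAs rise with brightness, so they do not set a member apart. A signal that closely follows the 75th percentile varies little once divided by it. This r and the SD after scaling, given below, are therefore not separate results. For miR-484, r was 0.96 (exact permutation p = 0.0208, adjusted p = 0.0521) and rho 0.77 (exact permutation p = 0.103, adjusted p = 0.171), but the relation rested on the 2 brightest arrays, without which r was −0.35, and 12.1% of the tested miRNAs had an r at least as high. For miR-877-5p, r was 0.81 (exact permutation p = 0.0486, adjusted p = 0.0810) and rho 0.83 (exact permutation p = 0.0583, adjusted p = 0.146), with r at 0.72 without the same arrays, so that miR-877-5p was at the median of all tested miRNAs.

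For the other 2 mirtrons r had opposite signs in the groups, over 3 arrays each. miR-1224-5p read 1999, 1845 and 2940 units in the GLE tumours and 1965, 1629 and 1604 in the model tumours, with r at −0.035 (exact permutation p = 0.965, adjusted p = 0.965) and rho at 0.086 (exact permutation p = 0.919, adjusted p = 0.919). miR-702-3p read 29.6, 28.0 and 28.0 units in the GLE tumours and 32.0, 26.6 and 18.0 in the model tumours, with r at 0.42 (exact permutation p = 0.413, adjusted p = 0.516) and rho at 0.31 (exact permutation p = 0.564, adjusted p = 0.705). On GLE replicate 2, the brightest array, miR-702-3p was thus at the level of the other GLE arrays, and dividing by the 75th percentile made that tumour its lowest. Within the 3 model arrays r was 0.99 for miR-1224-5p and 0.89 for miR-702-3p, and within the 3 GLE arrays it was −0.41 and −0.68. For miR-320-3p, miR-484 and miR-877-5p it was positive in both groups, and lowest for miR-877-5p in the model arrays (0.56). An r over 3 arrays can turn on 1 of them, and the difference between the groups was not tested. Without the 2 brightest arrays r was 0.58 for miR-1224-5p and 0.23 for miR-702-3p.

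After scaling, the SD over the 6 tumours was 0.065 for miR-320-3p, 0.12 for miR-484, 0.21 for miR-877-5p, 0.33 for miR-702-3p and 0.46 for miR-1224-5p, against a median of 0.28 over all tested miRNAs. miR-320-3p ranked 3 and miR-484 ranked 25 of 388 from the steadiest, and the mirtrons ranked 122, 234 and 301 in that order. By the SD within groups the ranks were 3, 45, 107, 245 and 308. A small spread was not particular to the capped pair. Among the tested ubiquitous canonical miRNAs, miR-425-5p and miR-423-5p had a smaller SE of the difference (0.154 and 0.155) than miR-484 (0.166). For miR-186-5p and miR-361-5p it was larger (0.195 and 0.224). The value of miR-320-3p on 1 array rested on 29 to 30 spots with an SE of 0.039 to 0.059, so its SD between tumours under this scaling was 1.32 times the median spot error, which does not include noise between arrays. For miR-484 that factor was 3.70, for miR-877-5p 4.75, for miR-702-3p 10.9 and for miR-1224-5p 60.2. Under this scaling, none of the 96 other tested miRNAs within 0.5 of its mean level had a smaller SD than miR-320-3p. That comparison was not made under the other scalings.

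**Figure D4:**
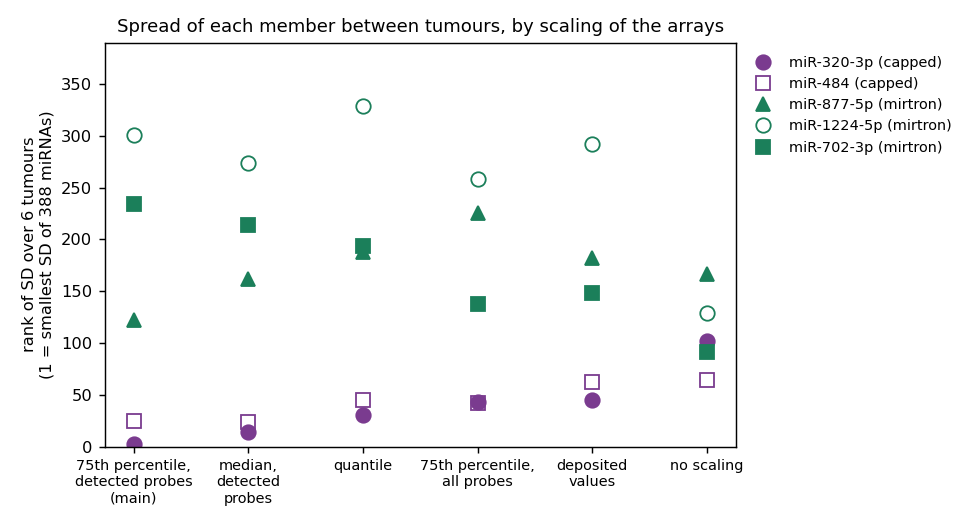
Rank of each member's SD over the 6 tumours among 388 miRNAs (1 is the smallest SD), for 6 ways of putting the arrays on one scale. Both capped members rank below all 3 mirtrons in every column but the one with no scaling, where miR-702-3p ranks 91 and miR-320-3p 102.

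The order held under other scalings with exceptions. Both capped members ranked below each mirtron with the median of detected probes (14 and 24), with quantile normalisation (31 and 45), with the 75th percentile over all probes (43 and 42) and in the authors' deposited values (45 and 62). With no scaling miR-320-3p ranked 102 and miR-484 ranked 64, and miR-702-3p lay between them at 91. The mirtrons changed places among themselves, with miR-877-5p at 226 and miR-702-3p at 138 over all probes. These ranks describe 6 arrays and carry no test.

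Between members, the capped pair tracked each other most closely. Their scaled values correlated with r = 0.79 (exact permutation p = 0.075, adjusted p = 0.625 over 10 pairs) and rho = 0.89 (exact permutation p = 0.0333, adjusted p = 0.333), with r = 0.68 without the 2 tumours farthest from the median, and r was 0.98 within the 3 GLE and 0.68 within the 3 model tumours. miR-1224-5p and miR-702-3p followed with r = 0.69 (exact permutation p = 0.125, adjusted p = 0.625) and rho = 0.77 (exact permutation p = 0.103, adjusted p = 0.514). Within the model tumours that relation had the opposite sign (r = −0.55). None of the 10 pairs passed the adjustment.

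Over all other tested miRNAs, the pattern most like that of miR-320-3p over the 6 arrays was that of miR-125a-5p (r = 0.94) and miR-193a-3p (r = 0.91). For miR-484 they were miR-486a-5p (r = 0.97) and miR-451a (r = 0.93), both abundant in red cells. For miR-877-5p they were miR-6538 and miR-2861 (r = 0.99 and 0.97), each with a GC content of 94.7%. miR-1224-5p was most like miR-292b-3p and miR-3473c (r = 0.999 and 0.994), with which its mature sequence shared runs of 4 and 2 bases at most. miR-702-3p was most like miR-3620-3p and miR-7224-3p (r = 0.99 for both), and with the former it shared a run of 8 bases. That run holds the seed of miR-702-3p, whereas the probes of miR-702-3p pair with its 3′ end. In miR-3620-3p the run lies near the 3′ end, and binding across the 2 was not tested. The high values come from picking the best of 383 candidates over 6 arrays that share 1 slide, and are given as a description.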

How the data were processed

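Total RNA of 6 tumours, 3 per group, was labelled with Cy3 and hybridised to one-colour miRNA arrays, 1 per tumour. The deposited scanner files hold intensity values that the authors obtained with Agilent Feature Extraction 10.7.1.1, with background and a spatial trend subtracted per spot and no normalisation between arrays, per the file headers. The authors' deposited table of log2 values, for which the sources used here give no method, served as an alternative; its ranks followed the scaled arrays (Spearman correlation 0.963 to 0.973 over 388 miRNAs, slope 1.09 to 1.17). Its column medians were −3.20, −3.32 and −3.27 for GLE and −3.32, −3.17 and −3.13 for model replicates 1 to 3, each the column's lowest value; its centring and normalisation stay unknown.

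Spots of a probe were averaged without control spots and those flagged as outliers (1401 to 1883 of 56430 spots per array); 0 were saturated. Detection of a probe required a share over 0.5 of its spots well above background. Signals were divided by the 75th percentile of the 636 probes so detected on each of the 6 arrays, floored at −4.25 (log2) and log2-transformed, and probes detected on all arrays of a group were averaged per miRNA. Groups were compared with limma 3.58.1 in R 4.3.3 (lmFit and eBayes, two-sided; degrees of freedom 4 residual plus 3.05 prior), checked beforehand on simulated data. The members, lists and class split were chosen with earlier results of these data known. Named miRNAs are the members, their opposite arms, the listed non-canonical, ubiquitous and marker miRNAs, and the 2 most alike in pattern per member; miR-20a-5p and miR-194-5p in the group by hairpin ends were named after their values were seen. Of 8 listed entries that match rRNA or tRNA, 2 were on the array and 0 were detected. Precision is limited by how many arrays there are, with a median 95% interval of ± 0.54.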

Additional observations from a re-analysis of the deposited data

How the results depend on the processing

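With another scaling, background correction, filter, floor, spot rule or the deposited values, or with 1 tumour left out, 0 of the 5 members passed the adjusted threshold in any of 18 alternatives each (smallest limma adjusted p = 0.0823). With no scaling between arrays the difference of miR-320-3p was 0.0048 and that of miR-484 was 0.043, both above 0. In the deposited values the mean difference of the capped pair was −0.16, against −0.051, and the groups did not overlap for miR-320-3p. With 1 tumour left out, miR-484 ran from −0.12 to 0.031 and miR-702-3p from −0.085 to 0.38, and the number of miRNAs past the threshold from 0 to 2, the 2 arising without GLE replicate 2. miR-877-5p stayed below 0 and miR-1224-5p above 0 in all 18. The mean of the mirtrons ran from −0.053 to 0.27 and the capped minus mirtron shift from −0.30 to 0.040, within 1 SD of the reported value. The median of all miRNAs moved by under 0.1 with each scaling (−0.080 to 0.079). The cause of these shifts was not tested.

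With the replicate number as a block, the members kept their differences by construction, and 0 miRNAs passed (17 had an unadjusted p under 0.05, against 6 without the block). Deviations of tumours with the same number correlated with r = −0.62, −0.18 and 0.37. As deviations from means of 3 tumours depend on each other, these values cannot decide whether the numbers pair the tumours. No slide block was run, since all arrays shared 1 slide. Signals 0.55 to 1.28 above the floor at their lowest (miR-1224-5p excepted) limit the 4 dim members.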
